A study of Mus musculus with 34 samples.

Results

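The 9 genes described here mark endothelial cells, the cells that line blood vessels: Pecam1, Cdh5, Kdr, Cldn5, Vwf, Tie1, Tek, Plvap and Emcn. They are a list of names known as endothelial markers, taken up with earlier results of these data known, and all 9 were found once in each of the 2 expression tables, among 32098 listed genes. RNA-seq had been done on the stromal vascular fraction (SVF), the pellet of non-fat cells left when collagenase-digested visceral white fat is spun and the floating adipocytes are removed. The donors were C57BL/6J male mice. Control mice (CHOW) ate a control diet and HFD mice a diet with 60% of its kcal from fat, in both cases from 6 weeks of age. The libraries were 4 CHOW and 6 HFD at 8 weeks on diet, 5 CHOW and 6 HFD at 20 weeks, and 7 CHOW and 6 HFD at 34 weeks. Red blood cells were lysed but no cell type was sorted, so every value is an average over vessel, immune, stromal and other cells. A fall in the number of endothelial cells and a fall in RNA per endothelial cell cannot be told apart in such samples.

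In fat tissue a dense capillary network supplies oxygen to adipocytes and passes fatty acids to them. Endothelial cells are held together by junction proteins, are instructed by growth factor receptors on their surface, and let solutes through by carriers and pores. Cdh5 encodes VE-cadherin, the adherens junction protein of endothelium, Cldn5 a claudin of its tight junctions, and Pecam1 the adhesion molecule CD31, which platelets and leukocytes also carry. Kdr encodes VEGF receptor 2, the main signalling receptor for VEGF-A. Tek encodes Tie2, the receptor for angiopoietins, and Tie1 is its relative that binds no angiopoietin strongly by itself. Plvap encodes the protein of the diaphragms that span endothelial fenestrae and caveolae, Emcn a sialomucin of capillary and venous endothelium, and Vwf the clotting factor that endothelial cells store and that megakaryocytes and platelets also make.

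Positions are those of the mouse genome build GRCm38 (GENCODE M21). Tek (chromosome 4, 94739289 to 94874976, plus strand) and Tie1 (chromosome 4, 118471191 to 118490061, minus strand) shared chromosome 4, and Cdh5 (chromosome 8, 104101625 to 104144511, plus strand) and Plvap (chromosome 8, 71497765 to 71511752, minus strand) shared chromosome 8. Cldn5 (chromosome 16, 18776847 to 18778262, plus strand) was the single-exon gene of the group, whereas transcripts of Vwf (chromosome 6, 125546774 to 125686679, plus strand) held up to 52 exons. The others were Kdr (chromosome 5, 75932827 to 75978458, minus strand), Pecam1 (chromosome 11, 106654217 to 106750628, minus strand) and Emcn (chromosome 3, 137341067 to 137432185, plus strand).

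Because the members moved together between libraries, as described below, the sequence just before 4 of their start sites is shown for comparison. RefSeq promoter sequences (GRCm38.p6) matched 5 of the 9 members: Emcn, Tek, Tie1, Kdr and Cldn5. Each printed window runs from 250 to 21 bases before the start site, 230 bases, 5′ to 3′ on the strand of the gene. Capitals mark AGGAAG, a form of the binding sites for ETS factors, or GGGCGG, the GC box, on either strand, so that a match on the other strand appears as its reverse complement.
Emcn, chr3:137340828-137341057, plus strand: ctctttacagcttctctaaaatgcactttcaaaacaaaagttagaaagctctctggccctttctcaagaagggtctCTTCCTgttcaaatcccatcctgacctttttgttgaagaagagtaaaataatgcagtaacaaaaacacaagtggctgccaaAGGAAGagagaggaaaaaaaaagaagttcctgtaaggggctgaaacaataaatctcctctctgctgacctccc
Tek, chr4:94739039-94739268, plus strand: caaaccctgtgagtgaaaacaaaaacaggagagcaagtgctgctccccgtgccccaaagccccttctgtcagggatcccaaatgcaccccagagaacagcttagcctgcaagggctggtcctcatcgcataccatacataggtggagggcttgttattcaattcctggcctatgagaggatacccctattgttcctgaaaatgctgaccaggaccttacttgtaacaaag
Kdr, chr5:75978476-75978705, minus strand: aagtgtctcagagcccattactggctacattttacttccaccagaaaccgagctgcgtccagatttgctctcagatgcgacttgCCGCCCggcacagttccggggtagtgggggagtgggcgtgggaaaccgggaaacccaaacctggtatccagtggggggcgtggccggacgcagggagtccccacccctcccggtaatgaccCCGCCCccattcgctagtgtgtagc
Cldn5, chr16:18776597-18776826, plus strand: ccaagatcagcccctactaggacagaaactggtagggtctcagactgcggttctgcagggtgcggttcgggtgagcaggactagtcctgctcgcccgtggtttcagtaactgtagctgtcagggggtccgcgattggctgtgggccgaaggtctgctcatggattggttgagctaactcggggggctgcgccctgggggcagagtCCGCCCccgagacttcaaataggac
The 4 windows were unlike in composition. G and C made up 61.3% of the Kdr window and 60.9% of the Cldn5 window, with 14 and 12 CG pairs, against 50.4% and 2 pairs for Tek and 40.4% and 0 pairs for Emcn. The median over the 32851 promoters in the table was 51.7% and 5 CG pairs. The GC box occurred 2 times in Kdr and once in Cldn5, and in 29.8% of all windows of that length. AGGAAG occurred 2 times in Emcn and once in Tie1, was not found in the Kdr, Cldn5 or Tek windows, and 27.2% of all windows held it. Shorter or other forms of ETS site were not searched for, so windows without AGGAAG may hold them. Of 3 other strings searched on either strand, none was found in the windows of the 5 members. The first was TATAAA, a core promoter element that 11.8% of all windows held. The second was AGATAA, bound by factors such as Gata2, which 9.48% held. The third was GTAAACA, bound by forkhead factors, which 2.91% held. These are matches of letters only, and none of the strings searched contains another.

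The tables gave TPM values, a measure of transcript abundance in which each gene's reads are divided by transcript length and scaled to the same total in each library, so levels can be compared between genes but sequencing depth is not known. The lowest value of any of the 9 genes in the 34 libraries was 3.90 TPM, for Vwf. Cldn5 was the most abundant in every library, and made up a mean of 36.8% to 47.4% of the summed TPM of the 9 genes in the 6 groups. Cdh5 and Pecam1 came next and lay close together: Cdh5 was the higher of the pair in 2 of 4 libraries of CHOW at 8 weeks and in 5 of 6 of HFD at 8 weeks, whereas Pecam1 was the higher in all 6 of HFD at 34 weeks. Kdr, Tie1, Tek, Plvap and Emcn shared the middle of the order, and neighbours among them overlapped in every group. Vwf was the least abundant member in all 6 groups, with 0.641% to 1.59% of the sum, and the ranges of Vwf and its nearest neighbour were apart in 5 of the 6 groups, HFD at 8 weeks being the exception.

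**Figure D1:**
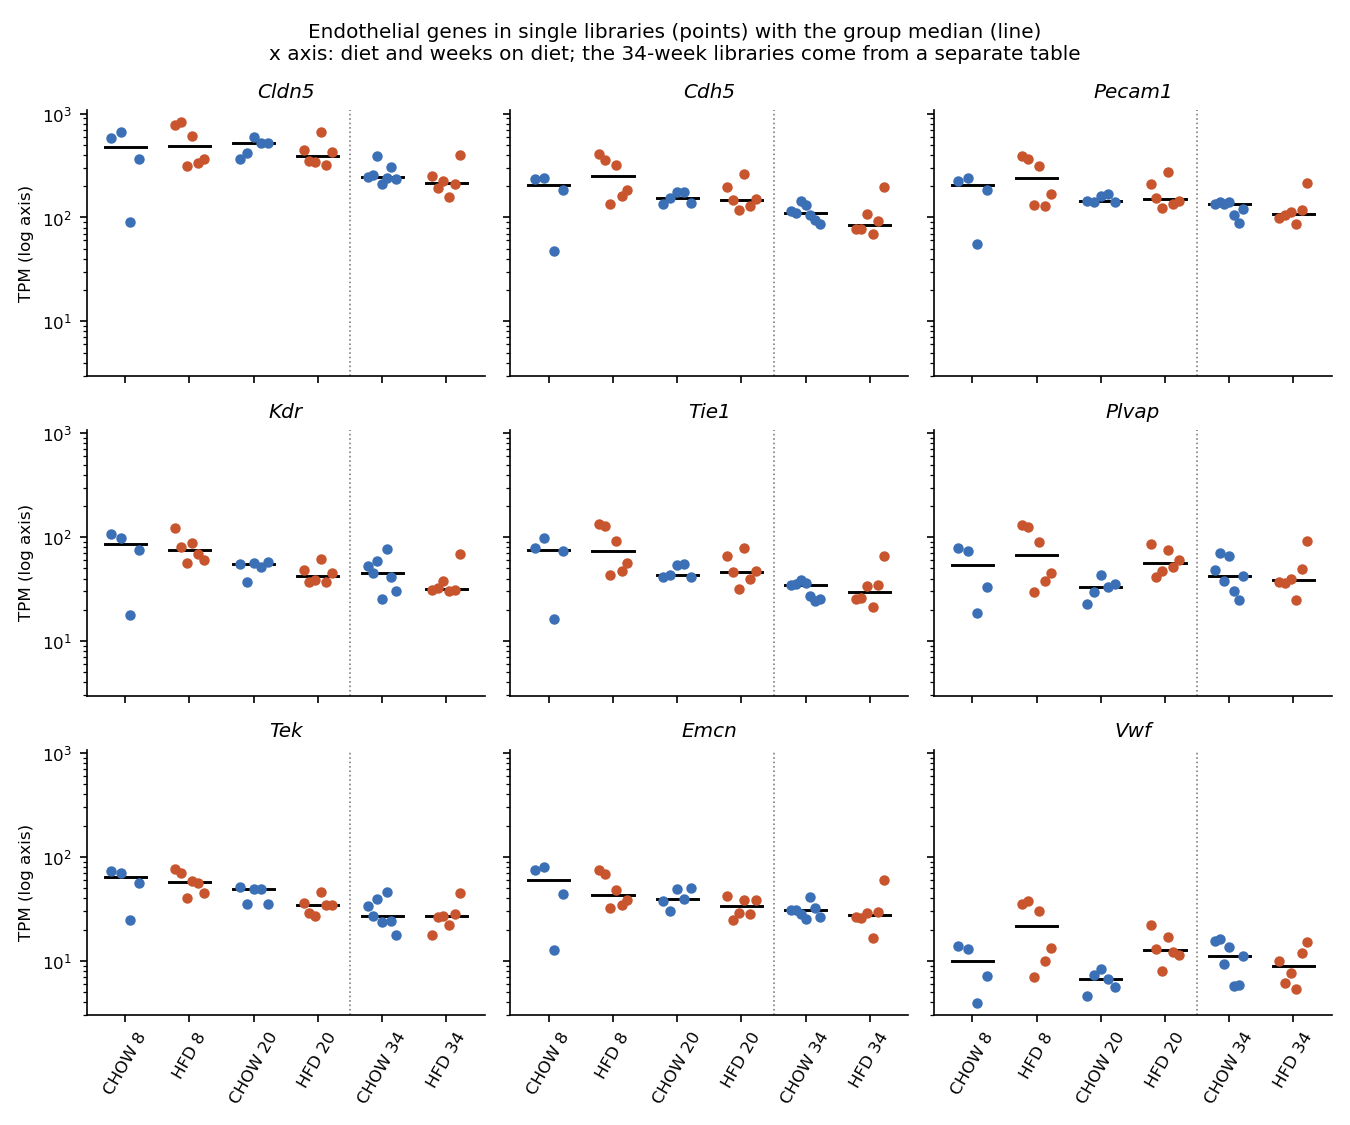
TPM of each endothelial gene (log axis) in single libraries (points; blue CHOW, red HFD) by diet and weeks on diet, with the group median (line). Replicate 3 of CHOW at 8 weeks is the lowest library of its group for each gene, and CHOW and HFD overlap for every gene at each time.

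The summed TPM of the 9 genes was 1091 ± 588 (SD, n = 4) in CHOW and 1419 ± 616 (n = 6) in HFD at 8 weeks, 1012 ± 141 (n = 5) and 1002 ± 288 (n = 6) at 20 weeks, and 702 ± 90.7 (n = 7) and 652 ± 256 (n = 6) at 34 weeks. The 34-week libraries stand in a table of their own, and no test was made across the tables. Libraries of one group could differ several-fold. In CHOW at 8 weeks replicate 3 held 286 TPM and the highest library 1582 TPM, and in HFD at 34 weeks the sum ran from 432 to 1156 TPM.

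The levels of the genes moved together from library to library. After each gene was set relative to its group mean, the 36 pairs of members correlated with a median Pearson r of 0.90 and a lowest r of 0.65 over the 21 libraries of 8 and 20 weeks. Without replicate 3 of CHOW at 8 weeks the median was 0.84. Over the 13 libraries of 34 weeks the median was 0.67, and 0.32 without replicate 6 of HFD, the library with the highest sum. At 34 weeks Vwf had an r of -0.01 with Kdr and 0.05 with Tek but of 0.91 with Plvap. All libraries share this fixed total, and these correlations are descriptions only.

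The same library-to-library pattern was searched for among 10379 other genes with a mean of at least 5 TPM in both tables. The 4 most like the mean of the members, by the lower of the r over 21 and over 13 libraries, were Sema3g (0.97), Ptprb (0.95), Fam43a (0.92) and Erg (0.92). Sema3g is a semaphorin of arterial endothelium, Ptprb encodes VE-PTP, the phosphatase that acts on Tie2 and VE-cadherin, and Erg is an ETS transcription factor of endothelium. Genes of the mural cells of the vessel wall ranked not far behind, with Rgs5 at rank 12 (0.89) and Myh11 at rank 25 (0.85). The shared pattern was therefore not particular to endothelial genes. A list of 15 further endothelial genes, among them Egfl7, Robo4, Icam2 and Mmrn2, was read for comparison, and its mean level is plotted against that of the 9.

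**Figure D2:**
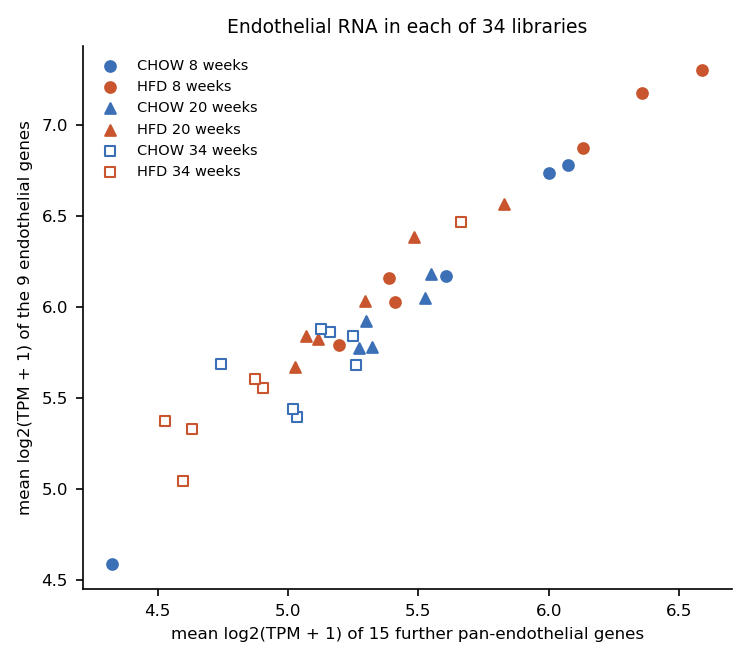
Mean log2(TPM + 1) of the 9 endothelial genes (y axis) against that of 15 further pan-endothelial genes (x axis) in each of the 34 libraries, by diet (blue CHOW, red HFD) and weeks on diet (shape). The points lie along a line, with replicate 3 of CHOW at 8 weeks at its lower end and 3 HFD libraries of 8 weeks at its upper end.

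Some libraries held RNA of tissues next to the fat pad, of blood or of adipocytes. Seminal vesicle genes summed to 123060 TPM in replicate 3 of HFD at 8 weeks, hemoglobin genes to 267366 TPM in replicate 6 of that group, germ cell genes to 13112 TPM in replicate 5 of HFD at 20 weeks, and adipocyte genes to between 4432 and 19775 TPM in replicates 5, 6 and 7 of CHOW at 34 weeks. Because TPM is a share, such RNA lowers every other gene of its library. Without these 6 libraries the number of members called was the same as with all libraries in each of the 5 comparisons that use them. Leaving them out did not remove all such RNA. Hbb-bs alone reached 53324 TPM in a library of CHOW at 20 weeks, and Prm2 reached 1612 TPM in a library of HFD at 34 weeks.

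Whether HFD changed the endothelial genes at 8 weeks was asked first. No member passed the test, in which limma was fitted to log2(TPM + 1) over all genes and a gene was called at an adjusted p (Benjamini-Hochberg) below 0.05. Of 16808 genes tested, 0.0238% were called. At an unadjusted p below 0.05 there was 1 member, Vwf. All 9 members had a higher mean log2 in HFD, with fold changes on the log2(TPM + 1) scale from 0.11 for Emcn to 1.03 for Vwf and a median of 0.55, against -0.08 over all genes tested. This rested on the low replicate 3 of CHOW: without it the median was -0.08 and 4 of 9 members were positive. With that library Vwf stood 1.03 higher in HFD on the log2 scale (SE 0.41, adjusted p 0.408), and it stood 0.71 higher (SE 0.42, adjusted p 0.662) without it.

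The libraries show this directly. Vwf stood at 13.8, 12.97, 3.90 and 7.14 TPM in CHOW, and in HFD its lowest library had 6.92 TPM, its median was 21.6 TPM and its highest had 37.5 TPM. In HFD 3 libraries were above every CHOW library, and the other 3 lay inside the CHOW range. Cldn5 stood at 589, 670 and 367 TPM in replicates 1, 2 and 4 of CHOW but at 89.7 TPM in replicate 3, against 312 to 824 TPM in HFD. In the same libraries the 7 platelet genes tested had a median log2 fold change of -0.70, and limma called 0 of them (4 at an unadjusted p below 0.05). The summed level of the platelet list ran from 496 to 662 TPM in CHOW and from 262 to 397 TPM in HFD. Most of that sum was Pf4, at 471 to 643 TPM in CHOW and 252 to 383 TPM in HFD. The other platelet genes tested had group means of 0.41 to 5.39 TPM, and among them Treml1 was higher in HFD (0.60). Genes of mural cells, the pericytes and smooth muscle cells of the vessel wall, shifted in the same direction as the members. Of these, 10 of 10 had a higher mean log2 in HFD, with a median log2 fold change of 0.68. In limma 0 of them were called (3 at an unadjusted p below 0.05). Their sum ran from 93.6 to 345 TPM in CHOW and from 155 to 646 TPM in HFD. With the mean level of the further endothelial genes added to the model as a covariate, the mural median was 0.22 and 0 were called. Whether the mural shift also rested on replicate 3 of CHOW was not tested. Adipocyte genes were lower in HFD for 8 of 9, with a median of -0.71, and 0 were called (7 at an unadjusted p below 0.05). The part of these cells and of platelet RNA in the endothelial values was not tested.

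At 20 weeks, when 14.3% of all genes tested were called between the diets, the sum of the endothelial genes differed by less than its spread, and again no member was called. The mean log2 was higher in HFD for 5 members and lower for 4, with a median log2 fold change of 0.05, against 0.08 over all genes tested. The members split: the log2 fold change was 0.96 for Vwf (SE 0.38, adjusted p 0.0933) and 0.84 for Plvap (SE 0.39, adjusted p 0.145), whereas the other 7 lay between -0.35 for Tek and 0.14 for Pecam1. Vwf and Plvap were the 2 members with an unadjusted p below 0.05, and both were called when limma was fitted to the 2 groups of 20 weeks alone (adjusted p 0.0155 for Vwf and 0.0173 for Plvap), where 17% of all genes were called.

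Vwf stood at 4.55, 7.36, 8.28, 6.72 and 5.57 TPM in CHOW and at 8.00, 12.6 and 22.3 TPM in the lowest, median and highest library of HFD. Plvap stood at 22.7, 29.8, 43.4, 32.8 and 35.1 TPM in CHOW and at 41.0, 55.8 and 85.5 TPM in the lowest, median and highest library of HFD. For each of these 2 genes, 5 of 6 HFD libraries were above every CHOW library and the remaining one overlapped with the top of CHOW. The 2 junction genes did not follow: Cdh5 had a mean of 156 ± 19.9 TPM in CHOW (n = 5) and 167 ± 54.4 TPM in HFD (n = 6), and Cldn5 of 482 ± 92.8 TPM and 424 ± 126 TPM.

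The remaining members overlapped between the diets as well. Emcn stood at 37.3, 30.3, 48.8, 38.9 and 50.5 TPM in CHOW and at 24.8, 33.5 and 42.2 TPM in the lowest, median and highest library of HFD (log2 fold change -0.30, SE 0.34, adjusted p 0.603). Tie1 stood at 41.3, 42.9, 53.9, 55.6 and 41.2 TPM in CHOW and at 31.7, 46.5 and 78.6 TPM in HFD. Pecam1 stood at 144, 139, 162, 169 and 141 TPM in CHOW and at 123, 149.8 and 271 TPM in HFD. For Tie1 and Pecam1 the HFD libraries extended beyond CHOW on both sides.

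Replicates 1 and 4 of HFD were the top 2 libraries of their group for all 9 members, so the spread within HFD was in part common to them. To set this aside, the 9 genes were compared at an equal level of the other endothelial genes, by adding the mean log2(TPM + 1) of the 15 further genes to the model as a covariate. This fit was chosen after the values were seen. In it 17.3% of all genes were called between the diets at 20 weeks, and 11.3% were called as higher in HFD. Plvap was called, 0.96 higher in HFD on the log2 scale (SE 0.16, adjusted p 0.000568), as was Vwf, 1.07 higher (SE 0.20, adjusted p 0.00137). Pecam1 (0.25, SE 0.09, adjusted p 0.0679) and Tek (-0.28, SE 0.11, adjusted p 0.0786) were not called, nor were the other 5.

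Both calls held when any 1 of the 11 libraries of 20 weeks was left out, with adjusted p of at most 0.00272 for Plvap and 0.00537 for Vwf, in fits that called 9.65% to 21.7% of all genes. The covariate holds Cd93 and Aplnr, which were themselves called higher in HFD. Without these in the covariate (16.5% of all genes called, 11.3% called higher), Plvap (1.17) and Vwf (1.26) were called and so were Pecam1 (0.45, SE 0.11, adjusted p 0.00734), Cdh5 (0.38, SE 0.09, adjusted p 0.00968) and Tie1 (0.42, SE 0.11, adjusted p 0.0143). The number of members called thus depended on which endothelial genes made up the reference, while Plvap and Vwf were called with either.

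The same split was seen without a model, when each member was expressed as a percent of Cdh5 in its own library, a measure also chosen after the values were seen. Vwf stood at 3.36% to 4.73% of Cdh5 in CHOW at 20 weeks and at 6.42% to 11.3% in HFD. Plvap stood at 16.8% to 25.6% of Cdh5 in CHOW and at 28.1% to 43.2% in HFD. At 20 weeks the ranges were apart for these 2 genes and overlapped for the other 6 members. Of the 16808 genes tested, 3.66% had ranges apart by this ratio and 1.32% had all HFD libraries higher. Set against the mean log2 level of the 15 further endothelial genes instead, also after the values were seen, 3 members had ranges apart, all higher in HFD. They were Vwf, Plvap and Pecam1. Pecam1 lay 1.802 to 1.879 above that mean in CHOW and 1.884 to 2.262 above it in HFD on the log2 scale, so its ranges nearly touched. By this measure 4.79% of all genes tested had ranges apart and 2.64% had all HFD libraries higher.

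**Figure D3:**
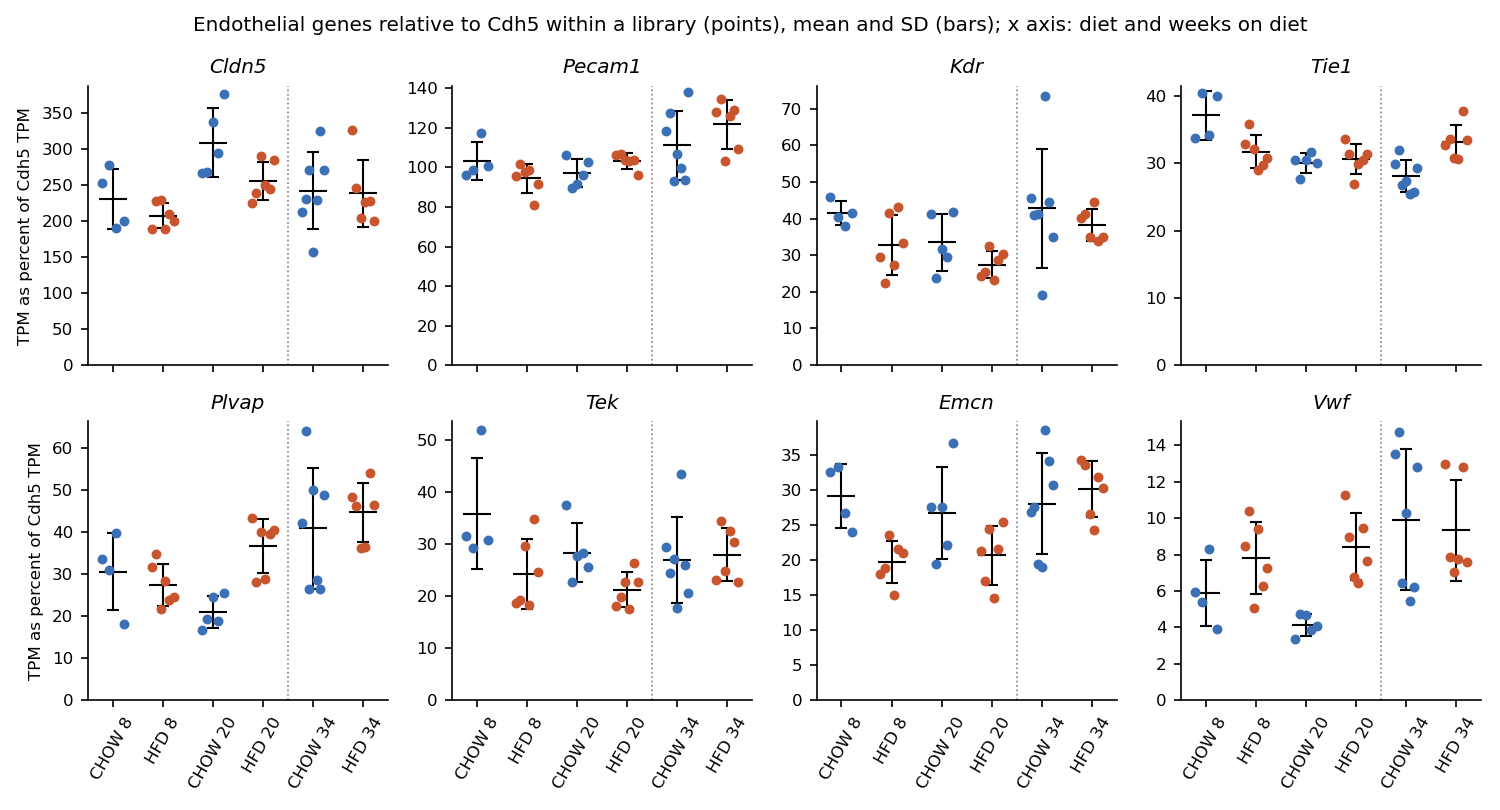
TPM of each of the other 8 endothelial genes as a percent of Cdh5 TPM in the same library (points; blue CHOW, red HFD), with mean and SD (bars), by diet and weeks on diet. At 20 weeks the HFD libraries of Plvap (28.1% to 43.2%) and Vwf (6.42% to 11.3%) lie above those of CHOW, and the 34-week CHOW libraries spread widely.

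Of the 4 groups of 8 and 20 weeks, CHOW at 20 weeks had the lowest mean ratio for both genes, with ranges that overlapped those of CHOW at 8 weeks. Vwf was 5.88% ± 1.83 of Cdh5 in CHOW (n = 4) and 7.82% ± 1.99 in HFD (n = 6) at 8 weeks, against 4.14% ± 0.582 in CHOW (n = 5) and 8.43% ± 1.84 in HFD (n = 6) at 20 weeks. Plvap was 30.6% ± 9.06 and 27.5% ± 5.03 at 8 weeks, against 20.96% ± 3.86 and 36.7% ± 6.49 at 20 weeks. By the same ratio Emcn was apart between the diets at 8 weeks, at 24.1% to 33.4% in CHOW and 15.1% to 23.6% in HFD. Tie1 was apart between CHOW at 8 weeks (33.7% to 40.5%) and CHOW at 20 weeks (27.6% to 31.7%). The share of all genes apart was not computed for these comparisons. No member was called for the diet by time interaction with the covariate (0.357% of all genes called) or without it (0.297%, and 0 of 9 members at an unadjusted p below 0.05). Plvap had an interaction of 0.84 (SE 0.24, adjusted p 0.124) and Vwf of 0.46 (SE 0.30, adjusted p 0.389) with the covariate.

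Other sources of Vwf and Pecam1 RNA were looked at in the same libraries. Of 7 megakaryocyte and platelet genes tested, limma called 0 between the diets at 20 weeks (3 at an unadjusted p below 0.05), with a median log2 fold change of -0.23. The summed level of the list ran from 356 to 564 TPM in CHOW and from 297 to 550 TPM in HFD. Most of it was Pf4, at 342 to 548 TPM and 280 to 531 TPM. The others tested had group means of only 0.29 to 7.56 TPM, and their fold changes ran from -0.65 for Gp9 to 0.77 for Treml1. A level of platelet RNA cannot be read from such a sum. No more than 1 of the 8 listed platelet genes was at 0 in any of these libraries. Macrophage genes moved with diet: 5 of 10 were called, all higher in HFD, led by Cd68 (log2 fold change 1.43, adjusted p 0.00131) and Adgre1 (1.38, adjusted p 0.00312), and their sum ran from 5322 to 12663 TPM in CHOW and from 9536 to 16850 TPM in HFD. All 8 mesothelial genes and all 4 hemoglobin genes were called lower. The part of these cells in the endothelial values was not tested.

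The angiopoietin and VEGF systems, which signal through Tek and Kdr, were read from lists of their own. Of 3 angiopoietin pathway genes tested, Angpt2, the ligand that endothelial cells release and that competes with Angpt1 at Tie2, was called at 20 weeks, with 1.94 to 3.93 TPM in CHOW and 6.75 to 15.5 TPM in HFD (log2 fold change 1.52, SE 0.31, adjusted p 0.00342). Angpt2 was not called at 8 weeks (0.99, SE 0.34, adjusted p 0.330) or at 34 weeks (0.94, SE 0.27, adjusted p 0.182). Tek itself stood at 51.0, 35.2, 48.9, 49.6 and 35.1 TPM in CHOW and at 26.7, 34.1 and 46.5 TPM in the lowest, median and highest library of HFD, a log2 difference of -0.35 (SE 0.23, adjusted p 0.333). Of 9 VEGF ligands and receptors tested other than Kdr, 1 was called, Vegfd, which in mice is a ligand of the lymphatic receptor Flt4 and not of Kdr, and which was lower in HFD (log2 fold change -0.61, SE 0.17, adjusted p 0.0244). The log2 fold change of Kdr was -0.21 (SE 0.32, adjusted p 0.700).

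Genes of vessel subtypes gave few calls at 20 weeks. Among the 15 further endothelial genes 2 were called, both higher in HFD: Aplnr, the apelin receptor, rose by 1.29 (SE 0.36, adjusted p 0.0239) and Cd93, a C-type lectin of angiogenic endothelium, by 0.80 (SE 0.25, adjusted p 0.0362). None of the 7 arterial, 8 venous and activated, 5 adipose capillary, 6 junction, 10 transcription factor and 10 mural genes tested was called without the covariate. With it, 3 of 7 arterial genes were called, all higher in HFD, Hey1 (0.90, adjusted p 0.00700) and Dll4 (0.80, adjusted p 0.0121) leading, both of the Notch pathway. Of 5 capillary genes, Meox2 was called higher (0.82, adjusted p 0.0151) and Car4 lower (-0.54, adjusted p 0.0106). Of 10 mural genes, 3 were called higher, Cspg4 (0.79, adjusted p 0.0102) and Pdgfrb (0.62, adjusted p 0.0113) first. Of 10 transcription factors, Tal1 was called higher (0.52, adjusted p 0.0434). Of 6 junction genes, Jam3 was called lower (-0.43, adjusted p 0.0138). Of the 15 genes that make up the covariate, 2 were called higher and 4 lower, Cyyr1 (-0.78, adjusted p 0.0136) and Cav1 (-0.61, adjusted p 0.00515) leading the fall. Their mean is held level in this fit, so higher and lower values must balance among them. Of 3 lymphatic genes tested, Lyve1, which resident macrophages also express, was called lower with and without the covariate (log2 fold change -2.12 in both fits).

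At 34 weeks limma called no member (0 at an unadjusted p below 0.05), and 0.243% of 13982 genes tested were called. The log2 fold changes ran from -0.27 for Kdr to 0.04 for Tie1 (SE 0.19 to 0.29), with a median of -0.11 against 0.10 over all genes. Kdr stood at 25.4, 45.5 and 77.5 TPM in the lowest, median and highest library of CHOW and at 30.6, 31.6 and 68.9 TPM in HFD. Of the HFD libraries 5 lay between 30.6 and 38.0 TPM, and replicate 6 was apart from them. Vwf and Plvap, which had split from the others at 20 weeks, overlapped between the diets: Vwf at 5.76, 11.1 and 16.3 TPM in CHOW and 5.32, 8.84 and 15.03 TPM in HFD, Plvap at 24.8, 42.1 and 70.8 TPM and at 25.1, 38.4 and 91.8 TPM. With the covariate limma called 0 genes of any kind (0% of those tested, 1639 at an unadjusted p below 0.05), and Plvap had a log2 fold change of 0.19 (SE 0.29) and Vwf of -0.07 (SE 0.29). As a percent of Cdh5, Vwf ran from 5.47% to 14.8% in CHOW and from 7.05% to 12.98% in HFD.

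Time on diet was tested within each diet between 8 and 20 weeks. Time cannot be told apart from age or from the day on which a cohort was collected. On CHOW no member was called, and 0 had an unadjusted p below 0.05 in limma (0.613% of all genes called), with log2 fold changes from -0.44 for Plvap to 0.49 for Cldn5 and a median of -0.24 against -0.09 over all genes. Without replicate 3 of CHOW at 8 weeks the median was -0.66 and all 9 members were lower at 20 weeks, none of them called.

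On HFD all 9 members had a lower mean log2 at 20 than at 8 weeks, with a median log2 fold change of -0.50 against 0.09 over all genes tested. Of the 9 members 1 was called, Tek, which fell by 0.72 (SE 0.22, adjusted p 0.0487), where 8.78% of all genes were called and 2.65% were called lower. Tek stood at 40.4, 57.2 and 77.2 TPM in the lowest, median and highest library at 8 weeks and at 26.7, 34.1 and 46.5 TPM at 20 weeks. At 20 weeks 5 of 6 libraries were below every library of 8 weeks, so the groups overlapped by a single library, and the call was at the edge of the threshold: with 1 of the 12 libraries left out in turn, it was kept in 2 of 12 fits, with adjusted p from 0.0313 to 0.101 and 5.56% to 10.96% of all genes called. Kdr had the lowest fold change, -0.80 (SE 0.31, adjusted p 0.09999), and stood at 56.6, 74.9 and 121 TPM at 8 weeks and at 36.9, 41.9 and 61.2 TPM at 20 weeks. Again 5 of 6 libraries of 20 weeks were below all of 8 weeks, and Kdr was called lower in 4 of 11 alternative settings, which called 1.98% to 9.68% of all genes lower. Plvap had the log2 fold change nearest to 0, -0.16 (SE 0.37, adjusted p 0.825). Over the same interval on HFD 5 of 10 macrophage genes were called higher, and all 4 hemoglobin genes, 5 of 9 adipocyte genes and 2 of 8 mesothelial genes lower. The sum of the adipocyte list ran from 442 to 768 TPM at 8 weeks and from 301 to 491 TPM at 20 weeks. Of 10 mural genes 0 were called in limma (3 at an unadjusted p below 0.05), with a negative fold change for 8 and a median of -0.45. The part of these cells in the endothelial values was not tested.

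At an equal level of the 15 further endothelial genes, the direction turned for most members. On HFD 7 of 9 had a positive log2 fold change, Tek (-0.31, SE 0.11, adjusted p 0.0818) and Kdr being the other 2, and 2 were called, both higher at 20 weeks: Cldn5 (0.46, SE 0.13, adjusted p 0.0288) and Plvap (0.54, SE 0.17, adjusted p 0.0408), where 10.9% of all genes were called and 8.73% were called higher. Cldn5 was called in 11 of 12 fits that left out 1 library and Plvap in 4 of 12, with 6.63% to 12.2% of all genes called. On CHOW Cldn5 was called as well (0.63, SE 0.14, adjusted p 0.0236), where 1.59% of all genes were called and 1.18% were called higher, but this call was lost in 5 of 9 fits that left out 1 library, replicate 3 of CHOW at 8 weeks among them (0.419% to 2.42% of all genes called). At 8 weeks no member was called between the diets with the covariate (0.131% of all genes called).

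**Figure D4:**
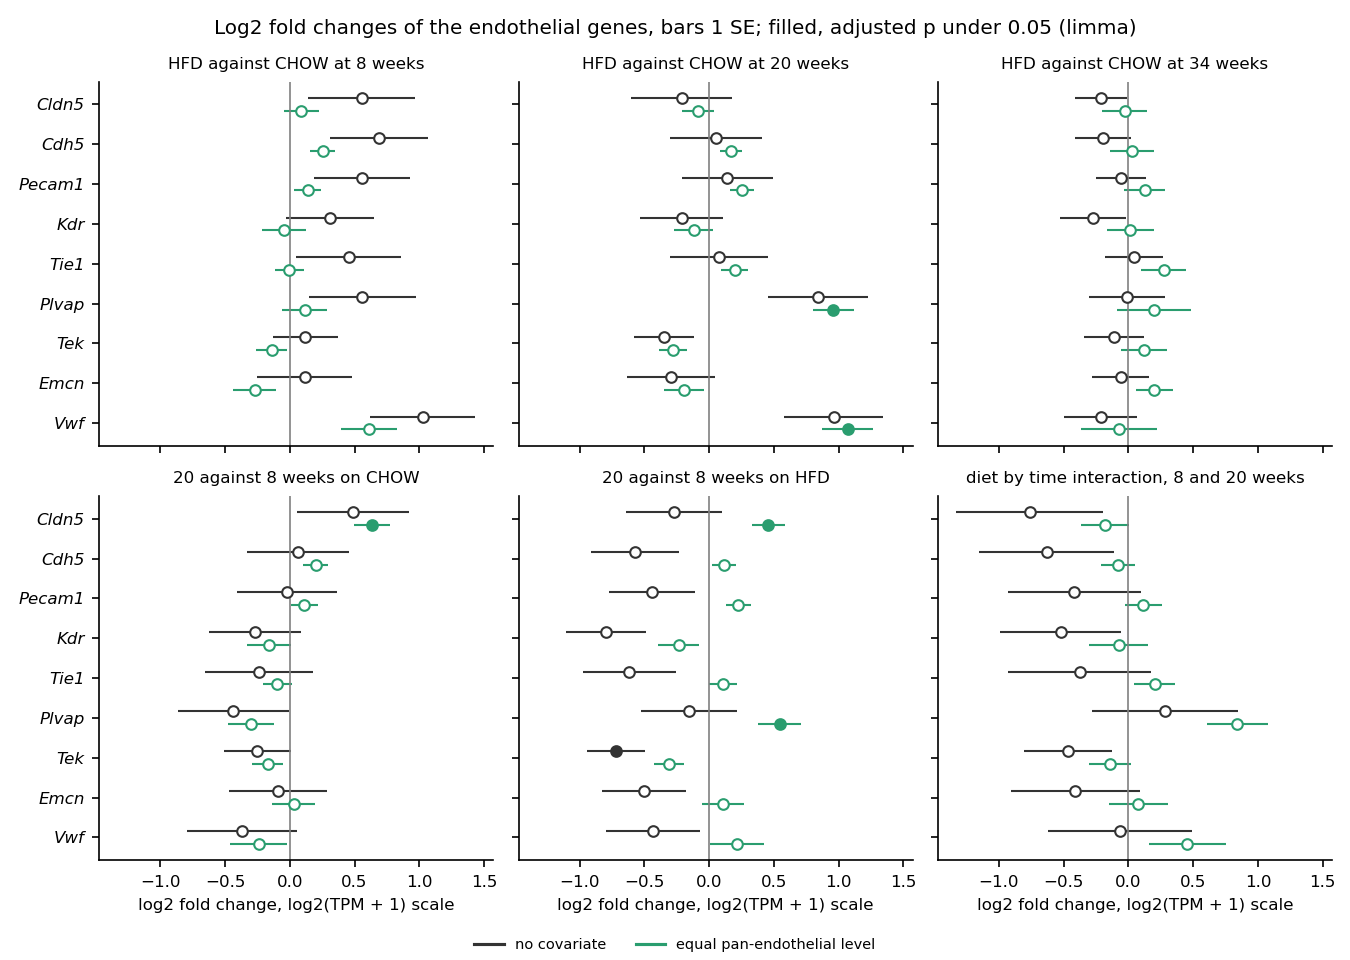
Log2 fold change of each endothelial gene on the log2(TPM + 1) scale (x axis) in the 6 comparisons, with bars of 1 SE, without a covariate (black) and at an equal level of the 15 further endothelial genes (green). Filled points had an adjusted p under 0.05 in limma: Tek alone without the covariate, and with it Plvap and Vwf at 20 weeks, Cldn5 from 8 to 20 weeks in both diets and Plvap from 8 to 20 weeks on HFD.

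Adhesion molecules that endothelial and other cells display in inflammation were among the genes that rose between 8 and 20 weeks in both diets. Icam1 had a mean of 374 ± 51.0 TPM (n = 4) in CHOW at 8 weeks and 993 ± 197 TPM (n = 5) at 20 weeks (log2 fold change 1.39, SE 0.26, adjusted p 0.0154), and 392 ± 153 TPM (n = 6) and 1071 ± 216 TPM (n = 6) in HFD (1.53, SE 0.23, adjusted p 0.000174). Vcam1 rose by 1.68 (SE 0.31, adjusted p 0.0141) on CHOW and by 1.82 (SE 0.27, adjusted p 0.000170) on HFD. At 34 weeks both had lower means than at 20 weeks. Icam1 stood at 154 TPM in CHOW and 256 TPM in HFD, and Vcam1 at 66.3 and 70.4 TPM. The 34-week libraries were not tested against the others. Of the 8 venous and activated genes, 2 were called between 8 and 20 weeks on CHOW and 3 on HFD, all higher. Sele (E-selectin) was the third (1.95, SE 0.51, adjusted p 0.0216). Of all genes tested, 0.613% were called on CHOW and 8.78% on HFD, where 2.65% were called lower. On HFD the arterial genes Efnb2 (-0.98, adjusted p 0.00584) and Bmx (-0.70, adjusted p 0.0297), the further endothelial genes Cav1 (-1.01, adjusted p 0.0101) and Clec14a (-0.87, adjusted p 0.0398) and the transcription factor Klf4 (-0.83, adjusted p 0.0172) were called lower, and the co-receptor Nrp2 (0.78, adjusted p 0.0313) higher. With the endothelial covariate, Efnb2 (-0.71, adjusted p 0.0188) and Cav1 (-0.60, adjusted p 0.0100) were called lower and Bmx (-0.53, adjusted p 0.0829), Clec14a (-0.42, adjusted p 0.0785) and Klf4 (-0.66, adjusted p 0.0546) were not. In that fit the arterial genes Jag1 (0.79, adjusted p 0.0154) and Notch1 (0.55, adjusted p 0.0133), the further endothelial genes Cd93 (0.80, adjusted p 0.0276) and Rasip1 (0.62, adjusted p 0.00542) and the transcription factor Sox18 (0.56, adjusted p 0.0227) were called higher. The fit called 10.9% of all genes tested, and 8.73% were called higher. At 8 and at 34 weeks none of the genes in the other lists of vessel genes was called between the diets.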

How the data were processed

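The 34 RNA-seq libraries came from stromal vascular cells of visceral white fat. The authors deposited 2 gene tables of TPM, 1 for 8 and 20 weeks and 1 for 34 weeks, quantified with Salmon against GENCODE transcripts after trimming with Trimmomatic. Counts were not used here, so the deposited TPM values were tested with limma 3.58.1 (R 4.3.3) on log2(TPM + 1), with 1 mean per group, a mean-variance trend and Benjamini-Hochberg adjustment over all genes tested. A gene was tested if it had at least 1 TPM in at least 4 libraries (8 and 20 weeks) or 6 libraries (34 weeks), and was called at an adjusted p below 0.05. The tables were fitted apart. Depth is unknown, and no counting interval can be given.

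Gene symbols were taken from the reference annotation for 31791 of 32098 identifiers. The members and the 19 other gene lists (153 genes) were chosen with earlier results of these data known. All 9 members were described in every comparison. From each other list and comparison, the named genes were those called with the most positive (at most 2) and most negative (at most 2) fold change, along with defining markers of other cell types. The genes most like the members were the 5 with the highest correlation in both tables, of which 1 is not reported here. The labels do not say that each library came from a separate mouse, so p-values measure the spread between libraries. The fit was tested on simulated data. Other tools were Python 3.11.15, numpy 2.4.6 and pandas 2.3.3.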

Additional observations from a re-analysis of the deposited data

Results flagged for a closer look

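In 54 groups of values (9 genes in 6 groups), 5 had a lowest or highest library farther from the rest than Dixon's 95% critical value allows, where chance gives about 1 in 20 groups, or 2.7 here. Replicate 3 of CHOW at 8 weeks was the lowest of its group for Cdh5, at 47.1 TPM, and for Tie1, at 16.1 TPM. Replicate 6 of HFD at 34 weeks was the highest of its group for Pecam1, at 216 TPM, and for Kdr, at 68.9 TPM. Replicate 2 of CHOW at 20 weeks was the lowest of its group for Kdr, at 36.8 TPM. The groups of values are not independent, since the genes moved together within a library.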

How the results depend on the processing

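At 20 weeks 0 members were called between the diets, but 2 (Vwf, adjusted p 0.0155, and Plvap, 0.0173) in a fit of only those 2 groups (17% of all genes called), 1 with sample quality weights (Vwf, 0.0252, 30.3% of all genes called) and 2 with the endothelial covariate (17.3%), 5 when Cd93 and Aplnr were left out of it (16.5%). Between 8 and 20 weeks on HFD 1 member was called, but 0 with no filter (3.92% of all genes called, against 8.78%) and 0 with no mean-variance trend (8.23%), and 2 with quantile normalization (16.3%), rescaling without hemoglobin, germ cell and seminal vesicle genes (11.7%), a fit of the 2 groups (5.56%), quality weights (12.3%) or the covariate (10.9%, and 9.94% without Cd93 and Aplnr). On CHOW the covariate gave 1 call. Leaving out 1 library in turn gave 0 to 1 calls on HFD over time, 0 to 1 on CHOW with the covariate and 1 to 2 on HFD with it. The covariate, the fit without a trend and the covariate with libraries left out were added after the data were seen. Of all calls at 20 weeks 65.1% were higher in HFD, and 45.8% with quantile normalization. Over time on HFD 69.8% were higher, 40.7% with quantile normalization, 59.1% with median-ratio scaling and 41.6% after rescaling, and on CHOW 74.8%, and 47.9% after rescaling. Quantile normalization moved the median of all genes from 0.08 to -0.06 at 20 weeks and from 0.09 to -0.08 on HFD over time.

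Whether replicate numbers pair libraries was not settled. At 8 and 20 weeks deviations of same-numbered libraries correlated from -0.10 to 0.40 (median 0.07, 28 pairs). Those of different-numbered libraries ran from -0.45 to 0.48 (median -0.03, 136 pairs). At 34 weeks the ranges were -0.01 to 0.21 (median 0.09, 6 pairs) and -0.20 to 0.20 (median -0.02, 36 pairs). In all, 10 of 21 and 6 of 12 libraries correlated best with their own number, and the number that chance would give was not computed. The main test takes no account of such pairs. With the replicate number as a block 1 member was called between the diets at 20 weeks (Vwf, adjusted p 0.0317, 21.4% of all genes called), Tie1 at 34 weeks stood at -0.0067 and Pecam1 over time on CHOW at 0.088.

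Fold changes near 0 changed sign under some settings, none of them called. At 8 weeks Emcn stood at -0.14 with quality weights. At 20 weeks Cdh5 stood at -0.0098 with median-ratio scaling and at -0.0093 after rescaling, Tie1 at -0.018 with quantile normalization, and Cldn5 at 0.14 with the smaller covariate. At 34 weeks Tie1 stood at -0.070 with median-ratio scaling, -0.038 with quantile normalization and -0.17 without the libraries with RNA of other tissues, where Emcn stood at 0.018. Over time on CHOW, median-ratio scaling gave 0.076 for Pecam1 and 0.0050 for Emcn, and Cdh5 stood at -0.042 with quantile normalization and -0.24 with quality weights. The interaction of Plvap was -0.093 without the libraries listed above for RNA of other tissues.

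Leaving out 1 library in turn, the fold change at 8 weeks ran from -0.27 to 0.57 for Kdr, -0.081 to 0.88 for Cldn5, -0.12 to 0.72 for Tie1, -0.23 to 0.28 for Tek and -0.45 to 0.41 for Emcn, each lowest without replicate 3 of CHOW. At 20 weeks it ran from -0.087 to 0.14 for Cdh5 and -0.054 to 0.20 for Tie1. At 34 weeks it ran from -0.23 to 0.027 for Pecam1, -0.16 to 0.16 for Tie1, -0.23 to 0.14 for Plvap and -0.27 to 0.091 for Emcn, each lowest without replicate 6 of HFD. Over time on CHOW it ran from -0.51 to 0.19 for Pecam1, -0.48 to 0.29 for Cdh5, -0.15 to 0.82 for Cldn5, -0.81 to 0.032 for Tie1 and -0.66 to 0.20 for Emcn, each lowest without replicate 3 of CHOW at 8 weeks. On HFD Plvap ran from -0.38 to 0.042. The interaction ran from -0.63 to 0.067 for Pecam1, -0.79 to 0.052 for Kdr, -0.32 to 0.25 for Vwf, -0.65 to 0.19 for Tie1 and -0.70 to 0.16 for Emcn. With the covariate, the ranges were -0.026 to 0.18 for Cldn5 and -0.062 to 0.24 for Plvap at 8 weeks, -0.22 to 0.054 for Cldn5, -0.35 to 0.095 for Vwf and -0.28 to 0.46 for Plvap at 34 weeks, and -0.36 to 0.060 for Vwf over time on CHOW. The cause of these shifts was not tested.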

Other observations

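With the endothelial covariate, more genes of activated endothelium passed the test over time. On CHOW 4 of 8 venous and activated genes were called, all higher at 20 weeks, with Vcam1 at 1.73 and Icam1 at 1.45 on the log2 scale. In that fit 1.59% of all genes were called and 1.18% were called higher. On HFD 4 of 8 were called, all higher, where 10.9% of all genes were called and 8.73% were called higher. The highest among those called on HFD were Sele, at 2.55, and Vcam1, at 2.03. Sele (E-selectin) and Selp (P-selectin) are receptors with which inflamed endothelium catches leukocytes. The part of leukocytes and stromal cells, which also carry Icam1 and Vcam1, was not tested.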
